A study of Homo sapiens with 60 samples.

Results

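The genes described here are 47 named human genes of DNA repair and DNA replication, chosen by gene name from the 60590 genes counted in the series. Of these, 26 act in DNA repair (the BRCA, Fanconi anaemia and break response proteins, damage kinases and end joining factors) and 21 in replication (the MCM helicase, polymerases, clamp loader, origin recognition and nucleotide supply). RNA was labelled near 14 FLAG-APEX2 constructs stably expressed in a human embryonic kidney line, Flp-In HEK293, and each construct has 2 streptavidin pulldown libraries and 2 input libraries made before the pulldown, 56 in all. All cells, those of the reference constructs included, received 500 µM biotin-phenol for 30 minutes and then 1 mM hydrogen peroxide for 1 minute, which lets the APEX2 peroxidase attach biotin to molecules close to it. The tagged proteins are SRSF7, SRSF1 and RNPS1 (splicing proteins of nuclear speckles), SAM68 (an RNA-binding protein), PML and SP100 (PML bodies), SMN2 and WRAP53 (gems and Cajal bodies), NPAT (histone locus bodies), FBL (nucleolus) and LMNA (nuclear lamina). NLS, GFP and FLAG constructs carry no body protein, and NLS, a nuclear localisation signal, is the reference in most comparisons. A second table holds SRSF7 pulldown RNA in 2 libraries after poly(A) selection and in 2 after ribosomal RNA depletion (the ribosome-depleted libraries). Nothing in the labels says that the 2 replicates of a group came from separate cultures, and p-values then reflect only how far these libraries spread, which may be technical. For the 56 libraries that spread is 1 estimate per gene over all of them, so libraries outside a comparison also enter its p-values.

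The MCM helicase opens DNA at origins marked by the origin recognition complex, polymerases copy the strands on the PCNA clamp that the RFC complex loads, and ribonucleotide reductase supplies the nucleotides. Breaks are sensed by the MRN complex and the kinases ATM, ATR and DNA-PK, and are mended by homologous recombination (BRCA1, BRCA2, PALB2) or by end joining (Ku, the product of XRCC5 and XRCC6). Many of these genes are transcribed for S phase under E2F factors, and many of the repair genes are long.

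The promoters are shown first because they are a feature in which the repair and replication genes differ and which the choice of genes did not use. Promoters of 39 of the 47 genes were found in the RefSeq table (GRCh38.p14). An E2F-type match, any of TTTCCCGC, TTTCGCGC, TTTGCCGC or TTTGGCGC on either strand within the 250 bases before the start, was present for 8 of 18 replication genes (44.4%) and for 1 of 21 repair genes (4.76%), against 3.4% of all 27305 genes with a promoter in the table. The replication genes with a match were MCM3, MCM6, MCM7, PCNA, RFC3, POLA2, POLE and LIG1, and the repair gene was FANCA. The matches are a description of letters and were not tested as binding sites. The windows below belong to the 6 genes that have a match and also passed the test for nuclear speckles against NLS, so that the sequence can be read beside the values that follow. They lie on the minus strand at chr12:132687343-132687385 (POLE), chr16:89816787-89816844 (FANCA), chr7:100101398-100101431 and chr7:100101552-100101609 (MCM7), chr19:48170426-48170483 (LIG1), chr20:5126649-5126706 (PCNA) and chr2:135876497-135876554 (MCM6). Capitals mark the match, which overlaps a match on the other strand in MCM6. MCM6 has another such overlapping pair further upstream, at chr2:135876559-135876620, that is not printed.
POLE: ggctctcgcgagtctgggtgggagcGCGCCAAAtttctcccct
FANCA: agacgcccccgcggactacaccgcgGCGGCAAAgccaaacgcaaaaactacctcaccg
MCM7, nearer the start: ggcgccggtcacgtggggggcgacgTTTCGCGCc
MCM7, further upstream: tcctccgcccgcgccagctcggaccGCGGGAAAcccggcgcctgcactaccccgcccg
LIG1: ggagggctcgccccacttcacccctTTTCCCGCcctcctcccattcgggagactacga
PCNA: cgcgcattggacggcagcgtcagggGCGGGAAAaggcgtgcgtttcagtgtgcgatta
MCM6: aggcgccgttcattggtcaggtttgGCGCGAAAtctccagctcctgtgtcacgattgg
Of these 6 genes, POLE, FANCA, MCM7 and LIG1 were higher near the speckle proteins and PCNA and MCM6 were lower, so genes with the match lay on both sides.

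Library totals were 14038645 to 56256915 counts for inputs and 19280434 to 42097988 for pulldowns, and the 47 genes took 0.847 to 1.14% of input and 0.839 to 1.36% of pulldown counts. Reads were counted per gene, and 29 of the 47 genes overlap another annotated gene, with which reads may be shared because the strand of counting is not given in the sources used here. POLA2, a subunit of the primase polymerase, is listed at 0 counts in all 56 libraries, which allows up to 3 counts in each, and RAD50 reached only 0.11 to 2.73 CPM (read counts scaled to the size of each library), so little is said of either. The other 46 genes passed the filter on low counts. Of 11 tagged genes, 10 were higher in their own input than in the other inputs (the exception was SRSF1). The defining HEK293 markers were present except NEFM, at a median of 0.377 CPM, and markers of blood, liver, endothelial and lung cells were at 0.739 CPM or less. By counts of the pseudogenes RPS14P8 and RPS3AP21 the libraries fall into 3 sets that the labels do not name. Set I holds 16 inputs (FBL, GFP, NPAT, RNPS1, SAM68, SMN2, SP100, WRAP53), set II the other 12 inputs and 24 pulldowns, and set III the pulldowns of LMNA and GFP together with the 4 libraries of the second table. LMNA pulldowns and NLS pulldowns therefore lie in different sets, and construct and set cannot be told apart for them. Input 1 of FBL and of NPAT stood apart, with 26.8% and 12.7% of genes more than 2-fold from the input median. Counts of calls are given with and without these 2 libraries for the totals over constructs, for SAM68, speckles and LMNA against NLS, and for speckles against LMNA. Counts for each construct over its own input, and for the other constructs against NLS, come from the fit of all 56 libraries only.

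Pulldown over own input asks which of the RNAs were over-represented near each construct. Pulldown and input lie in the same library set (II) for SRSF7, SRSF1, PML, NLS and FLAG only, and in the other 9 constructs fraction and set cannot be told apart, which carries into each comparison built on them. Across the 14 constructs the repair genes were called higher more often than lower, and the replication genes lower more often than higher. Of 364 pairs of a repair gene and a construct, 105 passed the test as higher and 40 as lower, and of 280 pairs with a replication gene 35 passed as higher and 107 as lower (edgeR quasi-likelihood test, Benjamini-Hochberg adjusted p under 0.05). In the 5 constructs within set II the repair genes showed no excess of higher calls, with 19 higher and 19 lower of 130 pairs, and the replication genes gave 11 higher and 36 lower of 100. A fit of the set II libraries alone called 51 and 34 for repair and 20 and 44 for replication. Over all genes tested, 2.31 to 30.1% were higher and 9.77 to 28% were lower, depending on the construct. Without input 1 of FBL and NPAT the repair pairs were 171 higher and 42 lower and the replication pairs 64 higher and 103 lower. Under scaling by total counts the split moved to 156 and 21 for repair and 57 and 86 for replication. All 46 genes were called in at least 1 construct, but the matching share of all genes is not given here, so this count is not a trait of these genes. The median repair gene was above 0 in 12 of the 14 constructs and the median replication gene in 5. With no filter beyond 1 count these were 11 and 3. Under total counts they were 13 and 9, and also 13 and 9 when genes needed a mean of at least 5 CPM. The median of all genes was itself between -0.015 (FLAG) and 0.275 (SRSF1). The repair medians by replicate were 0.048 and -0.044 in SRSF1, below the 0.159 and 0.231 of all genes. In NLS they were 0.005 and 0.044, beside 0.024 and 0.038, and in SAM68 0.602 and 0.509, beside 0 and 0.

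**Figure D1:**
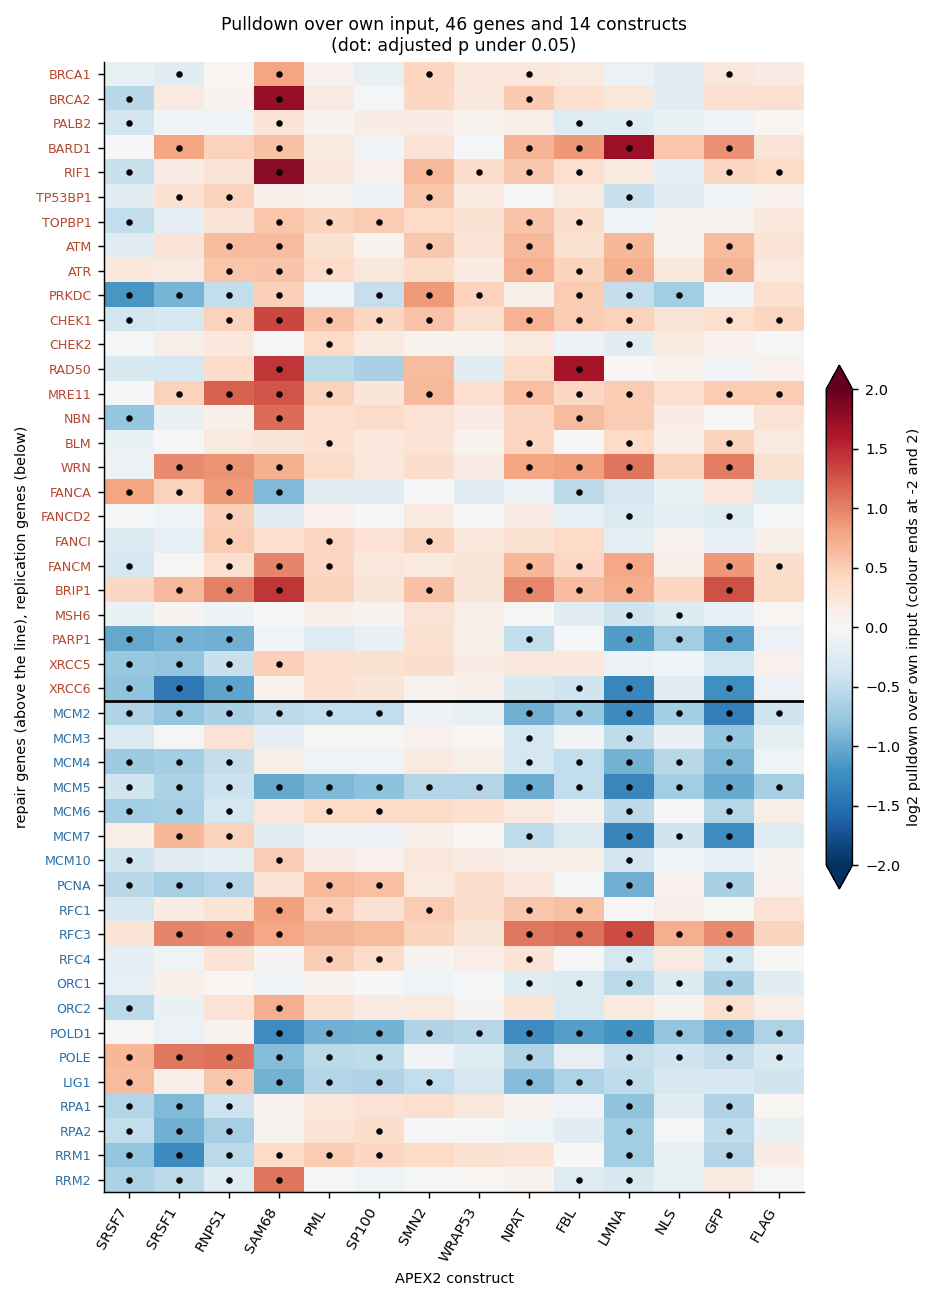
Log2 difference between pulldown and own input for the 46 tested genes (rows, grouped by role) in the 14 constructs (columns), from 2 pulldown and 2 input libraries each, with a dot where the adjusted p was under 0.05. RIF1 and BRCA2 reach 1.80 and 1.74 in SAM68, MCM5 is below 0 in every column, and POLE is above 0 in the columns of the 3 speckle proteins alone.

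The distance between the branches was widest in GFP, where the repair median was 0.16 and the replication median -0.58 on the log2 scale, followed by FBL (0.34 and -0.19), LMNA (-0.01 and -0.53) and SAM68 (0.56 and 0.08). In GFP 13 genes were higher and 17 lower, beside 27.2% and 26.7% of all genes. In LMNA 10 were higher and 25 lower, beside 30.1% and 28%, and 17 of the 25 were replication genes. In SAM68 23 were higher and 6 lower, beside 20.9% and 22%. SRSF7 was the reverse in its count, with 3 higher and 22 lower beside 23.3% and 20.7%. SRSF1 had 9 higher and 14 lower beside 29.3% and 23%, and RNPS1 15 and 13 beside 17% and 17.9%. PML had 13 and 5 beside 10.9% and 15.6%, and SP100 7 and 6 beside 12.8% and 16.7%. SMN2 had 10 and 3 beside 4.35% and 10.2%, and WRAP53 2 and 2 beside 12.9% and 9.77%. NPAT had 16 and 10 beside 23.8% and 23.4%, and FBL 14 and 10 beside 15.9% and 20.5%. NLS had 1 and 10 beside 9.32% and 15.1%, and FLAG 4 and 4 beside 2.31% and 10.1%. The repair median of NPAT was 0.73 in replicate 1 and 0.12 in replicate 2, and that of FBL 0.55 and 0.07, where replicate 1 uses the input that stood apart.

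**Figure D2:**
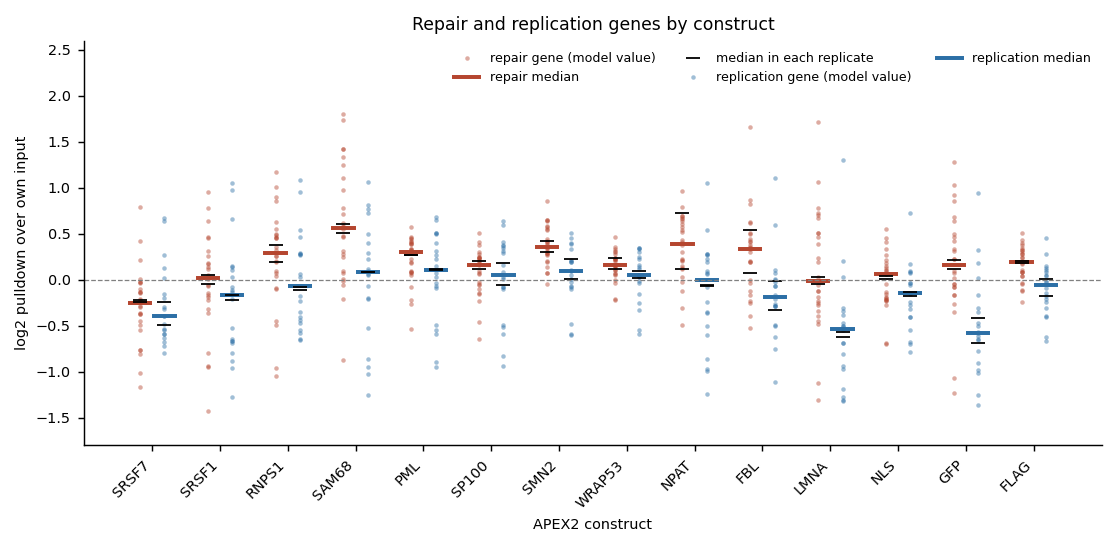
Log2 pulldown over input of each repair and each replication gene (points) with the median of each branch (coloured bars) and its median in each replicate (black ticks), for the 14 constructs. The branch medians are 0.16 and -0.58 in GFP and 0.56 and 0.08 in SAM68, and within every construct the points of the branches overlap.

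Among the MCM genes, which encode the replicative helicase and, in MCM10, a factor that helps to activate it, MCM5 was called lower than its input in all 14 constructs. Its level was 189 to 293 CPM in the 28 inputs (median 238) and 87.7 to 184 CPM in the 28 pulldowns (median 145), so the highest pulldown lay below the lowest input. In LMNA the inputs were 220 and 216 CPM and the pulldowns 87.7 and 88.8 CPM, a log2 difference of -1.31, and in SAM68 252 and 239 CPM fell to 124 and 118 CPM. The 14 calls became 13 under total counts, with all 14 differences still below 0. MCM2 was below 0 in all 14 and called lower in 12. Its GFP inputs were 269 and 272 CPM and its GFP pulldowns 93.2 and 118 CPM, and its SMN2 libraries, 281 and 293 CPM in the inputs and 246 and 289 CPM in the pulldowns, overlapped. MCM4 was lower in 8 constructs, MCM6 in 5 and higher in 2, MCM3 lower in 3, and MCM10 higher in 1 and lower in 2. MCM7 changed in both directions and is taken up with the speckle proteins.

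Polymerase and ligase genes separated the speckle proteins from the others. POLD1, the catalytic subunit of polymerase delta, was 103 to 258 CPM in the inputs (median 138) and 50.8 to 144 CPM in the pulldowns (median 83.8), and was called lower in 11 constructs, all but SRSF7, SRSF1 and RNPS1. Its SAM68 inputs were 166 and 160 CPM and its pulldowns 69.2 and 67.7 CPM. In PML they were 158 and 170 CPM against 87.1 and 82.5 CPM, and in SP100 166 and 158 CPM against 83.1 and 85.9 CPM. NPAT had inputs of 194 and 111 CPM and pulldowns of 59.8 and 68.5 CPM, and FBL had 258 and 164 CPM against 99.3 and 96.2 CPM, with input 1 the higher in both. The log2 differences without those inputs were -0.72 in NPAT and -0.69 in FBL.

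The clamp loader gene RFC3 lay at the other end. It was above 0 in all 14 constructs and called higher in 8, while its partner RFC1 was called higher in 5, and RFC4 higher in 3 and lower in 2. RFC3 was 53 to 242 CPM in the inputs (median 198) and 186 to 548 CPM in the pulldowns (median 316). Its LMNA inputs of 205 and 201 CPM stood against pulldowns of 453 and 548 CPM, and its NLS inputs of 223 and 219 CPM against 370 and 362 CPM. In NPAT and FBL the differences of 1.06 and 1.11 fell to 0.66 and 0.51 without input 1, where RFC3 was 83.8 and 53 CPM against 190 and 198 CPM in input 2. PCNA, the clamp itself, was higher in PML (inputs 252 and 225 CPM, pulldowns 374 and 374 CPM) and SP100 (316 and 269 CPM against 453 and 434 CPM) and lower in 5 other constructs.

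Of the MRN complex, MRE11 was called higher in 10 of 14 constructs, at 52.7 to 98.4 CPM in inputs (median 88.5) and 91.3 to 194.5 CPM in pulldowns (median 119). Its largest differences were in SAM68 (79.9 and 82.4 CPM against 192 and 194.5 CPM) and RNPS1 (76.2 and 88.1 CPM against 192 and 178 CPM), and in FLAG 82.8 CPM in both inputs stood against 122 and 113 CPM. RAD50 had the widest range over the constructs, 2.31 on the log2 scale, but at 0.11 and 0.528 CPM in the FBL inputs and 1.25 and 0.995 CPM in its pulldowns. Without FBL input 1 its difference was 1.12 with an adjusted p of 0.149.

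The damage kinases did not move as 1 group. CHEK1, the checkpoint kinase below ATR, was called higher in 10 constructs and lower in SRSF7. ATR, which senses stalled forks, was above 0 in all 14, called higher in 7, and had the narrowest range of all members at 0.54, with 45.5 to 93.1 CPM in inputs (median 84.5) and 83.5 to 152 CPM in pulldowns (median 100). BLM, a RecQ helicase, followed at 0.59 (83.9 to 146 CPM in inputs, median 106, and 89 to 160 CPM in pulldowns, median 126), and CHEK2 at 0.63 (49.6 to 63.6 CPM, median 55.1, and 49.4 to 71.2 CPM, median 57.6). The lowest input of all 3 was NPAT input 1. BRIP1, the helicase partner of BRCA1, was above 0 in all 14 and called in 8, with GFP inputs of 135 and 127 CPM and pulldowns of 378 and 258 CPM. In NPAT its inputs of 86.6 and 162 CPM differed more than its pulldowns of 272 and 216 CPM.

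SAM68 against NLS asks which RNAs were enriched near SAM68 beyond the nuclear reference. Repair genes gave most of the calls, led by RIF1 and BRCA2. RIF1, which protects broken ends and times replication, measured 270 and 268 CPM in the SAM68 inputs and 955 and 921 CPM in the pulldowns, while NLS had 271 and 259 CPM against 236 and 225 CPM. BRCA2, a mediator of homologous recombination, measured 78.8 and 83 CPM against 277 and 265 CPM in SAM68 and 82.1 and 73.7 CPM against 68.3 and 65.3 CPM in NLS. For both genes the SAM68 pulldowns were the highest of all 56 libraries, and in NLS the pulldowns lay below the inputs. The log2 differences from NLS were 2.01 ± 0.186 (SE, adjusted p = 6.52e-11) for RIF1 and 1.97 ± 0.233 (adjusted p = 1.99e-08) for BRCA2. RIF1 spans chr2:151409902-151534435 and overlaps NEB, and BRCA2 spans chr13:32315077-32400268.

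In all, 16 genes were higher and 3 lower in SAM68 than in NLS, beside 12.2% and 8.03% of all genes. Repair genes gave 11 of the higher and 1 of the lower calls. RRM2, the regulated subunit of ribonucleotide reductase, rose from 264 and 268 CPM in the inputs to 552 and 561 CPM (1.22 ± 0.125 from NLS, adjusted p = 8.34e-10). CHEK1 rose from 59 and 57.7 CPM to 150 and 145 CPM (1.07 from NLS). PRKDC, BRIP1, BRCA1, NBN, MRE11, FANCM, RFC1, MCM4, ORC2, MCM10, ATM and PALB2 followed, from 1.16 to 0.41. The lower genes were FANCA (-0.73), LIG1 (-0.63) and POLE (-0.46), whose SAM68 inputs were 410 and 395 CPM and pulldowns 225 and 217 CPM. None of the lower calls was left without NLS pulldown 2 or without NLS input 1 (0 in each). Without input 1 of FBL and NPAT the calls were 24 higher and 5 lower, beside 15.9% and 9.39%. With pulldowns compared alone, which for SAM68 and NLS lie in the same set, they were 21 and 4, beside 18.4% and 17.8%, with RIF1 at 2.03 and BRCA2 at 2.02. Against FLAG in place of NLS they were 9 and 1, beside 9.41% and 3.47%, with RIF1 at 1.40, BRCA2 at 1.42 and PRKDC at 0.14. Under total counts, which moved the median of all genes to -0.42, 7 were higher and 9 lower.

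**Figure D3:**
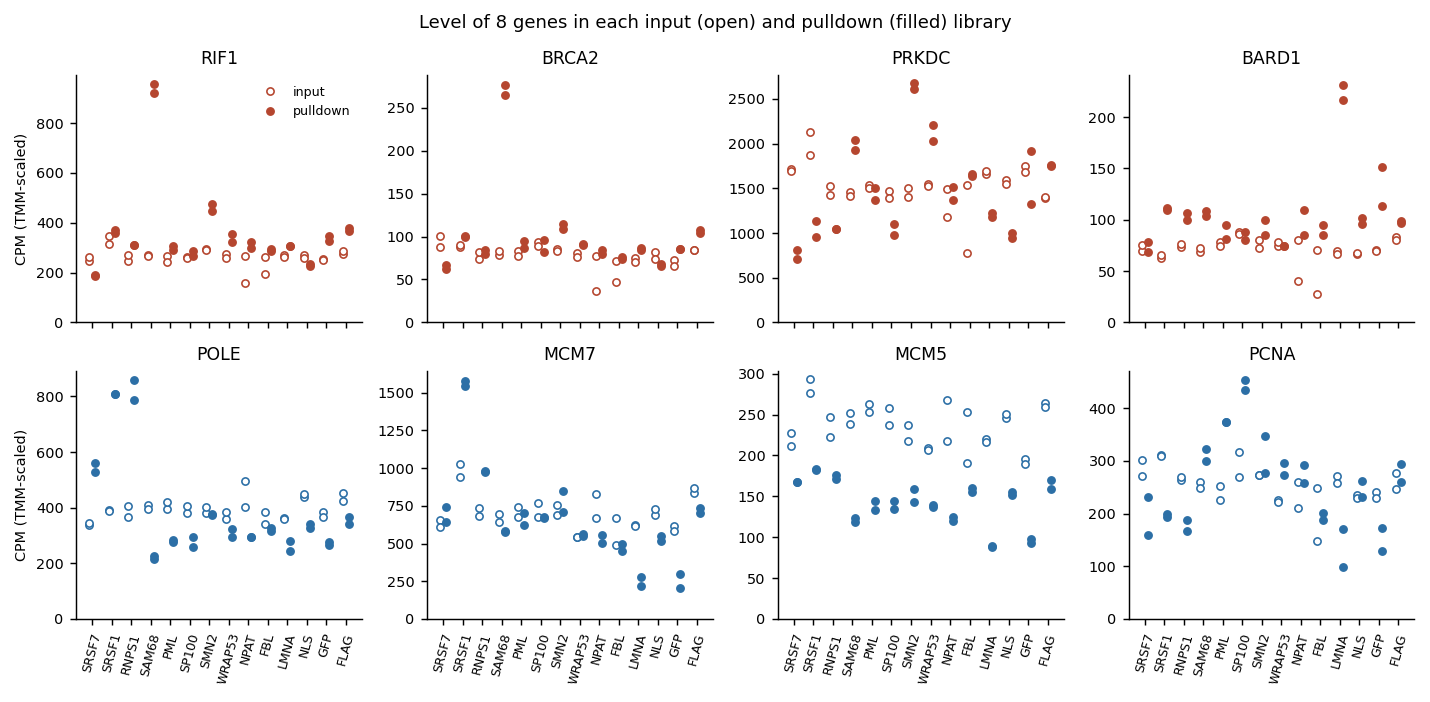
Level in CPM (linear axes from 0) of 8 genes in each input (open) and pulldown (filled) library of the 14 constructs. The SAM68 pulldowns of RIF1, at 955 and 921, stand above all others, and the RNPS1, SRSF1 and SRSF7 pulldowns of POLE lie between 529 and 859.

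Other repair and replication genes, 124 in a second list of which 118 were tested, gave 26 higher and 11 lower in SAM68. RRM2B (2.30), another small subunit of ribonucleotide reductase, and RMI1 (1.92), a partner of BLM, were among the largest differences. At the other end were CHTF18 (-1.24), FEN1 (-0.82, adjusted p = 0.648) and RECQL5 (-0.77).

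Speckles against NLS compares the mean of SRSF7, SRSF1 and RNPS1 with the nuclear reference. POLE, the catalytic subunit of polymerase epsilon, had the largest difference. All 3 tested genes of the polymerase and ligase group were higher than in NLS, while both ribonucleotide reductase genes were lower. POLE measured 338 and 346 CPM in the SRSF7 inputs and 559 and 529 CPM in the pulldowns. In SRSF1 it was 392 and 387 CPM against 809 and 809 CPM, and in RNPS1 407 and 367 CPM against 785 and 859 CPM. In NLS 437 and 448 CPM in the inputs stood above 328 and 342 CPM in the pulldowns. The log2 difference from NLS was 1.34 ± 0.115 (adjusted p = 1.17e-10). All 6 speckle pulldowns lay above every POLE input of those constructs, but POLE was picked as the highest member of this comparison. Both pulldowns lay above both inputs for 6 of the 46 members in SRSF7, 18 in SRSF1 and 25 in RNPS1. The shares of all genes were 42.7, 48.2 and 42.4%. POLE spans chr12:132623762-132687342, 63.6 kb.

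MCM7, which carries the microRNAs MIR25, MIR93 and MIR106B inside its span at chr7:100092728-100101397, was the only MCM gene called higher here. It measured 1030 and 938 CPM in SRSF1 inputs and 1576 and 1544 CPM in pulldowns, 734 and 685 CPM against 983 and 977 CPM in RNPS1, and 659 and 609 CPM against 640 and 742 CPM in SRSF7. The first 2 constructs showed no overlap between fractions and SRSF7 did. Both pulldowns lay above both inputs for 48.2% of all genes in SRSF1 and 42.4% in RNPS1. The NLS inputs were 688 and 727 CPM and its pulldowns 517 and 552 CPM, and the difference was 0.82 ± 0.164 (adjusted p = 0.000285). Relative to NLS, FANCA, a core Fanconi anaemia protein, was higher by 0.86, POLD1 by 0.78 and TP53BP1 by 0.41. LIG1, which seals Okazaki fragments, was higher by 0.74 and FANCD2 by 0.32. FANCA measured 161 and 167 CPM against 314 and 255 CPM in SRSF7 and 252 and 233 CPM against 393 and 487 CPM in RNPS1. POLD1 was not called against its own input in SRSF7, SRSF1 or RNPS1. Its levels in the RNPS1 libraries, 136 and 122 CPM against 125 and 144 CPM, overlapped. The difference from NLS came with a lower NLS pulldown (145 and 157 CPM against 84.5 and 90.1 CPM).

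The genes that fell were XRCC6 (-0.88 ± 0.163, adjusted p = 0.000105), RRM1 (-0.73), PCNA (-0.69), RPA2 (-0.67), XRCC5 (-0.62), MCM6 (-0.53) and RRM2 (-0.31). XRCC6, a Ku subunit, was 952 and 890 CPM in the SRSF1 inputs and 348 and 338 CPM in the pulldowns, and 666 and 655 CPM against 324 and 315 CPM in RNPS1. In NLS it was 611 and 597 CPM against 503 and 542 CPM. RRM1, the large subunit of ribonucleotide reductase, was 297 and 273 CPM against 121 and 114 CPM in SRSF1. PCNA was 312 and 310 CPM against 199 and 193 CPM there, and RPA2, a single-strand binding protein, 121 and 117 CPM against 60.1 and 62.5 CPM. In all 4 genes, picked as the lowest members of this comparison, the SRSF1 pulldowns lay below the inputs. Both SRSF1 pulldowns lay below both inputs for 24 of the 46 members and for 33% of all genes.

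The count for speckles was 7 higher and 7 lower, beside 12.5% and 7.88% of all genes. It was 13 and 9 without input 1 of FBL and NPAT, beside 18.7% and 9.72%, and 5 and 15 against FLAG, beside 21.4% and 16%. With the pulldowns alone FANCA was 0.28 with an adjusted p of 0.131. Leaving out NLS pulldown 2, NLS input 1 or NLS input 2 reduced the lower calls to 3, 4 and 4. By protein, SRSF7 gave 4 higher and 11 lower genes beside 13.2% and 7.71%, SRSF1 5 and 9 beside 14.7% and 8.99%, and RNPS1 8 and 2 beside 5.11% and 2.49%. Against its own input, SRSF7 had its lowest values in PRKDC, with 1721 and 1693 CPM in the inputs and 709 and 816 CPM in the pulldowns, and in PARP1, the poly-ADP-ribose polymerase, with 963 and 903 CPM against 415 and 507 CPM; PARP1 was also called lower in 6 other constructs and was lowest in LMNA. Of the 118 other pathway genes 26 were higher and 13 lower in speckles. RECQL4 (1.497), EME1 (1.39) and FANCG (1.36) had the largest differences, and RPA3 (-0.99) and RRM2B (-0.67) were among the lowest.

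LMNA against NLS compares the lamina with the nuclear reference. BARD1, the partner of BRCA1, rose most and 7 of the 9 genes that fell were replication genes. BARD1 measured 69.9 and 66.7 CPM in the LMNA inputs and 216 and 231 CPM in the pulldowns, against 67.1 and 67.6 CPM and 102 and 95.5 CPM in NLS. The LMNA pulldowns were the highest BARD1 values of the 56 libraries, and the difference from NLS was 1.16 ± 0.305 (adjusted p = 0.00774). BARD1 spans chr2:214725646-214809683. FANCM, a Fanconi anaemia helicase, rose by 0.65 from 35 and 33.9 CPM to 60.5 and 57.4 CPM, and ATM, the kinase activated by breaks, by 0.60 from 130 and 132 CPM to 200.1 and 216 CPM. WRN, with a log2 difference of 0.61, did not pass (adjusted p = 0.105).

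Lower in LMNA were XRCC6 (-1.10), PCNA (-1.06), MCM7 (-0.91), RPA2 (-0.65), MCM5 (-0.61), MCM2 (-0.59), RPA1, RFC4 and CHEK2 (-0.42). XRCC6 was 621 and 596 CPM in LMNA inputs and 279 and 211 CPM in pulldowns. MCM7 was 621 and 617 CPM against 281 and 217 CPM, PCNA 271 and 257 CPM against 171 and 98.9 CPM, and RPA2 99.1 and 89 CPM against 61.7 and 55 CPM. No pulldown of these 4 genes, picked as the lowest members, reached an input, while the PCNA pulldowns differed from each other by more than its inputs did. Both LMNA pulldowns lay below both inputs for 29 of the 46 members and for 37% of all genes. With 3 higher and 9 lower genes, beside 7.46% and 8.73% of all genes, the count of higher genes depended on the libraries. It was 13 higher and 8 lower without input 1 of FBL and NPAT, beside 15.4% and 9.5%, and 2 and 16 against FLAG, beside 14.8% and 16.5%. Under size factors it was 4 and 5, and under total counts 2 and 13. Without LMNA pulldown 2 it was 1 and 5, and leaving out NLS pulldown 1, NLS pulldown 2 or LMNA input 1 also left 5 lower genes. Of the 118 other pathway genes 7 were higher and 23 lower. XRCC4, a partner of the end joining ligase, rose by 1.45, while FEN1 (1.51, adjusted p = 0.236) and, at the low end, MCM8 (-1.23, adjusted p = 0.0678) did not pass. The thymidine kinase gene TK1 (-1.05) and POLD2 (-1.02), the partner of POLD1, were lower.

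GFP, the other construct with pulldowns in set III, gave values near those of LMNA, and both share the NLS libraries. GFP against NLS gave 5 higher and 9 lower genes by edgeR, beside 7.53% and 10.3% of all genes, and 10 and 5 by DESeq2. By edgeR, XRCC6 was at -1.02, MCM7 at -0.85, PCNA at -0.73, MCM2 at -0.68, FANCM at 0.73 and ATM at 0.57. MCM7 was 613 and 583 CPM in GFP inputs and 204 and 300 CPM in its pulldowns. BARD1 was 70.2 and 69.4 CPM against 151 and 113 CPM, a difference from NLS of 0.37 that did not pass (adjusted p = 0.426). When LMNA pulldowns were set directly against GFP pulldowns, within set III, 1 gene was higher and 4 lower, beside 7.59% and 4.78% of all genes. BARD1 was higher by 0.76 (adjusted p = 0.0159), and FANCA, RRM2, TP53BP1 and BRCA1 were lower. XRCC6 (-0.04, adjusted p = 0.885), MCM7 (-0.02, adjusted p = 0.966), PCNA (-0.16, adjusted p = 0.641) and FANCM (-0.04, adjusted p = 0.884) did not pass. This comparison was chosen after seeing the data.

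The ribosome-depleted SRSF7 pulldowns of the second table are also in set III. They were scaled apart from the first table, so levels across the tables are set side by side only. MCM7 was 273 and 289 CPM there, against 640 and 742 CPM in the SRSF7 pulldowns of the first table and 281 and 217 CPM in those of LMNA. BARD1 was 212 and 242 CPM there, against 68.5 and 78.2 CPM and 216 and 231 CPM. XRCC6 was 191 and 165 CPM there, against 301 and 401 CPM and 279 and 211 CPM. The poly(A) libraries of SRSF7, also in set III, had BARD1 at 76.4 and 64.1 CPM and XRCC6 at 316 and 313 CPM. They differ from the ribosome-depleted libraries by the selection of RNA. The part of the library set in the LMNA results was not tested.

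Speckles against LMNA, tested directly, gave 14 higher and 7 lower genes, beside 21.6% and 15.7%. Replication genes gave 9 of the 14, led by MCM7 (1.73 ± 0.166, adjusted p = 1.51e-10), POLE (1.40) and POLD1 (1.18). No replication gene passed as lower (edgeR), 1 was lower at an unadjusted p under 0.05, and DESeq2 called 2. Repair genes were 5 higher, led by FANCA (1.04), and 7 lower, namely BARD1 (-1.30 ± 0.25, adjusted p = 6.56e-05), NBN (-0.78), FANCM (-0.78), XRCC5, CHEK1, ATM and BLM. NBN, the regulatory MRN subunit, measured 65.8 and 62.3 CPM in LMNA inputs and 88.5 and 94.1 CPM in pulldowns, and 70.9 and 68.2 CPM against 37.4 and 44.4 CPM in SRSF7. The pulldowns of these constructs come from sets II and III. Without input 1 of FBL and NPAT the calls were 14 and 15, beside 21.3% and 19.7%, and with pulldowns alone 22 and 13, beside 30.9% and 30.5%. Scaling moved the split to 11 and 12 under size factors and to 15 and 4 under total counts. Without LMNA pulldown 2 it was 9 and 4, and 4 lower genes were also left without LMNA input 1 or LMNA input 2.

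**Figure D4:**
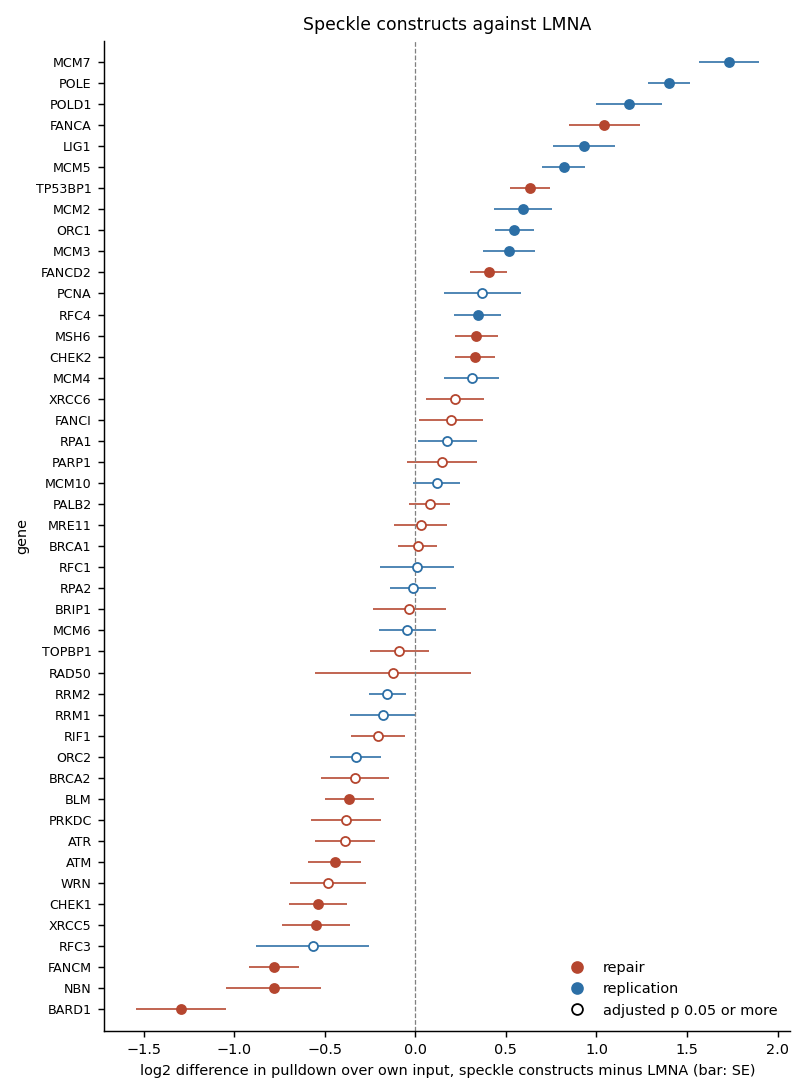
Log2 difference of pulldown over input between the mean of the 3 speckle proteins and LMNA for the 46 tested genes, with standard errors (bars) and open points where the adjusted p was 0.05 or more. MCM7 lies at 1.73 and BARD1 at -1.30, and the speckle and LMNA pulldowns come from different library sets.

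PRKDC, which encodes the catalytic subunit of DNA-PK, was the member most often higher than in NLS. Its NLS inputs were 1591 and 1547 CPM and its NLS pulldowns 944 and 1001 CPM. In SMN2 the inputs of 1503 and 1407 CPM stood against pulldowns of 2606 and 2674 CPM, and in WRAP53 1547 and 1522 CPM against 2025 and 2212 CPM. The FLAG libraries, with no body protein, had 1391 and 1405 CPM against 1758 and 1748 CPM. NLS pulldowns were thus below their inputs, and those of SMN2, WRAP53 and FLAG above. Against NLS the differences were 1.55 ± 0.239 in SMN2 (adjusted p = 7.82e-05), 1.16 in WRAP53, 1.20 in FBL, 1.02 in FLAG and 0.81 in NPAT. FBL input 1 had 772 CPM against 1536 CPM in input 2, and without it and NPAT input 1 the FBL difference was 0.83 (adjusted p = 0.00136).

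Over the 13 constructs other than NLS, 58 of 598 gene and construct pairs were higher than in NLS and 43 lower. Repair genes gave 40 and 14 of 338, and replication genes 18 and 29 of 260. Without input 1 of FBL and NPAT repair gave 115 and 19 and replication 50 and 33. Under total counts all members gave 42 and 47, and under size factors 78 and 34. Leaving out NLS pulldown 2, NLS input 1 or NLS input 2 reduced the lower calls to 16, 23 and 22. SMN2 had 7 higher genes beside 4.41% of all genes (2.27% were lower), with PARP1 (1.01), RIF1 (0.86) and TP53BP1 (0.78), a reader of chromatin at breaks, after PRKDC. WRAP53 had 5 beside 4.99% (3.32% lower), NPAT 3 beside 1.13% (3.06% lower), and FBL and FLAG 1 each (PRKDC) beside 0.439% and 2.21% (0.249% and 0.866% lower). DESeq2 called more genes higher in each of these constructs, 14 in SMN2, 8 in WRAP53, 9 in NPAT, 4 in FBL and 5 in FLAG. In PML and SP100 no member passed in either direction (edgeR). By the same test 0.0718% and 0.536% of all genes were higher and 0.308% and 1.4% lower. Of the members, 14 and 11 were higher at an unadjusted p under 0.05, and DESeq2 called 5 and 6 higher. Shares of all genes are those of edgeR throughout, and none is given here for DESeq2 or for unadjusted p.

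The last comparison sets the scaled level of each gene in SRSF7 pulldown RNA after poly(A) selection against its level after ribosomal RNA depletion. It is relative and does not show which RNAs carried a poly(A) tail, as genes called lower were still present after selection. Replication genes gave most of the higher calls after selection and repair genes most of the lower ones. In all, 19 genes were higher and 16 lower, beside 27.5% and 26.7% of the 18641 genes tested. Replication genes gave 13 and 2, and repair genes 6 and 14. PCNA measured 129 and 133 CPM in the ribosome-depleted libraries and 241 and 288 CPM in the poly(A) libraries (1.02 ± 0.091, adjusted p = 2.53e-10). RFC4 rose from 50.3 and 53.2 CPM to 82.1 and 104 CPM, XRCC6 from 191 and 165 CPM to 316 and 313 CPM, and PARP1 from 333 and 326 CPM to 538 and 520 CPM. BARD1 was lower, at 212 and 242 CPM against 76.4 and 64.1 CPM (-1.69 ± 0.097, adjusted p = 3.5e-14). RFC3 fell from 508 and 603 CPM to 268 and 280.4 CPM (-1.02), WRN from 292 and 300 CPM to 180.3 and 191 CPM (-0.67), and ATR from 166 and 169 CPM to 110.2 and 111 CPM (-0.60). The groups did not overlap for any of these 8 genes, but they were picked as the extremes of this same comparison, so this is no separate support. Scaling moved the split to 22 and 12 under total counts and to 16 and 16 under size factors. Of the other pathway genes, 50 of 117 were higher and 30 lower.

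Gene length differed between the branches, with a median span of 84.6 kb for the repair genes and 40.5 kb for the replication genes. Over the 46 genes the rank correlation of span with pulldown over input was 0.75 in GFP and 0.69 in LMNA, beside 0.6 and 0.58 over the 17803 tested genes with a span, so the relation was not limited to these genes. It was 0.63 in SMN2 and 0.56 in SAM68, beside 0.42 and 0.36, and 0.24 in SRSF7, beside 0.07. It was lower than over all genes in PML (0.16 beside 0.26), SP100 (-0.03 beside 0.22) and NLS (0.33 beside 0.35). For the poly(A) comparison it was -0.68, beside -0.63 over 15070 genes. Genes within a library share its depth and scaling, so the values are descriptions and carry no p-value. The part of gene length in the difference between the branches was not tested.

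**Figure D5:**
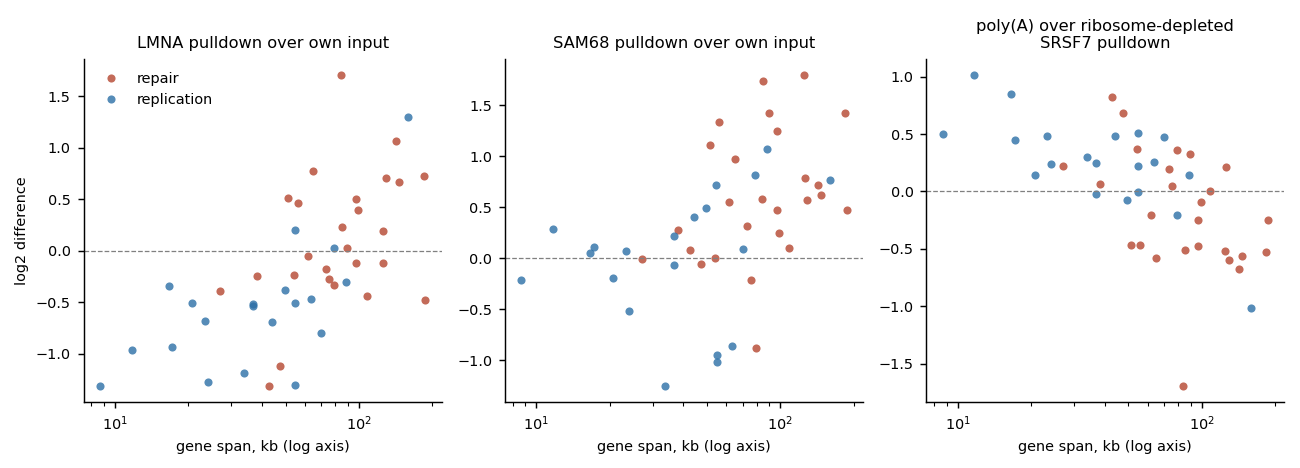
Log2 difference against gene span in kb (log axis) for the 46 tested genes, in LMNA and SAM68 pulldowns over own input and in poly(A) over ribosome-depleted SRSF7 pulldown, with repair and replication genes in separate colours. Longer genes lie higher in LMNA (rank correlation 0.69) and SAM68 (0.56) and lower in the poly(A) comparison (-0.68).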

How the data were processed

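RNA of APEX2 pulldowns and inputs was sequenced from Flp-In HEK293 cells, 56 libraries in 28 groups of 2, with 4 more in a second table. The deposited values are raw read counts per gene, whole numbers with no normalisation. Per the submitters' processing notes, the tools were STAR 2.7.4a and featureCounts and the build was hg38; the sources used here do not give the annotation or the strand of counting. The table has 60591 rows, and 1 with a non-numeric cell was dropped. Samples were grouped by their titles, and columns were matched to samples by name.

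The main test was edgeR 4.0.16 in R 4.3.3: filterByExpr (23681 genes in the first table, 18641 in the second), TMM scaling, glmQLFit (robust) with 1 mean per construct and fraction over all 56 libraries (28 residual and 9.34 prior degrees of freedom), and the two-sided glmQLFTest at 0.05 after Benjamini-Hochberg adjustment over all genes tested. A separate fit of the second table had 2 residual degrees of freedom. CPM values are counts over the TMM-scaled library size, and log2 CPM by replicate used a prior count of 2. The steps were checked on simulated data with known changes. Alternatives used DESeq2 1.42.0, other scalings and filters, another reference, pulldowns alone, and each library left out.

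The genes, their roles and the second list were chosen with earlier results of these data known. Levels per library are printed for the 4 highest and 4 lowest members of speckle against NLS, LMNA against NLS and the poly(A) comparison, the 2 highest and 2 lowest of each pulldown over own input, and the 3 widest and 3 narrowest ranges over constructs; members of a shared role are described together, and other levels are shown for contrast. In the second list the 3 highest and 3 lowest genes are named for SAM68, speckles and LMNA, except some that are not reported here.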

Additional observations from a re-analysis of the deposited data

Results flagged for a closer look

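The results below were taken up because the effects of 2 groups under the same contrast, pulldown over input, differed by a test of the difference itself (edgeR, adjusted p under 0.05). Between the speckle proteins and LMNA, 14 genes were higher in the speckle proteins and 7 lower. On the log2 scale the differences were 1.73 for MCM7, 1.4 for POLE and 1.18 for POLD1, with NBN at -0.78 and BARD1 at -1.3. The pulldowns of these constructs lie in library sets II and III, so construct and set cannot be told apart. Between SAM68 and NLS, 16 genes were higher in SAM68 and 3 lower, with RIF1 at 2.01, BRCA2 at 1.97 and RRM2 at 1.22. The pulldowns of both lie in set II. The SAM68 inputs lie in set I and the NLS inputs in set II, so construct and input set cannot be told apart in this contrast. Counts in both comparisons are to be read beside the shares of all genes given where each was described above. These counts, the lower ones included, also changed with the processing, as listed below.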

How the results depend on the processing

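Depth, 2 libraries a group and the choice of NLS as reference limit these results, and the cause of each change below was not tested. Pulldown over own input gave 140 higher and 147 lower pairs, and 213 higher under total counts, 93 with no filter beyond 1 count, 226 when genes needed a mean of at least 5 CPM and 235 without input 1 of FBL and NPAT. Within library set II, which holds 230 of the 644 pairs, it gave 71 and 78; on these pairs the fit of all libraries gave 19 and 19 for repair and 11 and 36 for replication. Speckle against NLS gave 11 higher at CPM 5, and 15 lower against FLAG. Within set II it was another contrast, the mean of SRSF7 and SRSF1 without RNPS1, whose inputs lie in set I. That contrast gave 19 lower and is not the same comparison under another setting. LMNA against NLS gave 6 higher by DESeq2, 0 with no filter beyond 1 count, 7 at CPM 5, 10 with pulldowns alone, 13 without the 2 inputs and 1 against GFP, and 5 lower under size factors, 16 against FLAG, 20 with pulldowns alone and 4 against GFP, where FANCM turned to -0.037. Speckle against LMNA gave 22 higher with pulldowns alone, and 12 lower by DESeq2, 12 under size factors, 4 under total counts, 4 with no filter, 13 with pulldowns alone and 15 without the 2 inputs. Single constructs against NLS gave 108 higher by DESeq2, 35 with no filter, 92 at CPM 5, 31 against FLAG, 166 with pulldowns alone and 165 without the 2 inputs, and 27 lower with no filter, 67 against FLAG and 70 with pulldowns alone. SAM68 against NLS gave 7 higher under total counts, 10 with no filter and 9 against FLAG, and 9 lower under total counts, 1 against FLAG and 5 without the 2 inputs. Leaving out 1 library at a time gave 126 to 148 higher and 140 to 149 lower for pulldown over input, 5 to 7 and 3 to 8 for speckle against NLS, 1 to 3 and 5 to 12 for LMNA against NLS, 9 to 15 and 4 to 9 for speckle against LMNA, 39 to 75 and 16 to 48 for single constructs, 11 to 13 and 0 to 3 for SAM68, and 13 to 15 and 12 to 14 for poly(A). The SAM68 lower calls were 0 without NLS pulldown 2 or NLS input 1. In these refits the genes tested and the other constructs' comparisons were kept.

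The replicate numbers did not pair the libraries: over 14 construct pairs the correlation of deviations was -0.081 to 0.081. With the replicate block the counts were 138 and 137 for pulldown over input, 6 and 6 for speckle against NLS, 3 and 7 for LMNA against NLS, 13 and 7 for speckle against LMNA, 55 and 36 for single constructs, 15 and 3 for SAM68, and 20 and 16 for poly(A).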
